A study of Mus musculus with 40 samples.

Results

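A set of 10 genes of lipid uptake and lipid droplets was followed across a TCDD dose series in mouse liver. The set, taken by gene name, was Cd36, Lpl and Vldlr for uptake, Plin2, Plin4 and Plin5 for the droplet coat, Cidea and Cidec for droplet fusion, Pnpla2 for triglyceride breakdown and Mogat1 for triglyceride synthesis. The count tables list 55359 gene identifiers, and the 10 members were all among the 15373 genes that passed a filter on low counts and were tested.

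The livers came from 40 male C57BL/6 mice in 8 groups of 5. Every mouse received sesame oil by gavage, 7 administrations at 4-day intervals, in a study of 28 days that began at 30 and ended at 58 days of age. The oil held no TCDD in the vehicle group, and in the other 7 groups it held TCDD at 30, 10, 3, 1, 0.3, 0.1 or 0.03 μg/kg. TCDD is a dioxin and a ligand of AhR, the aryl hydrocarbon receptor, which acts as a transcription factor once bound. RNA was taken from whole liver of 1 sex and 1 strain when the study ended, so that fewer cells of a type and less RNA per cell cannot be told apart.

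Triglycerides reach the hepatocyte as fatty acids freed from circulating lipoproteins by lipoprotein lipase, as fatty acids carried across the membrane with the help of CD36, and inside lipoproteins taken up by receptors such as VLDLR. Stored triglyceride lies in droplets whose surface carries perilipins and, in fat-storing cells, CIDE proteins that pass lipid from small droplets to large ones. Adipose triglyceride lipase, the product of Pnpla2, starts the breakdown of the stored lipid, and monoacylglycerol acyltransferase 1, the product of Mogat1, feeds 1 of the routes of its synthesis.

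Levels are counts per M counts in genes (CPM), after scaling of the library sizes with TMM, the trimmed mean of log ratios. A gene was called when edgeR's quasi-likelihood test gave a Benjamini-Hochberg adjusted p under 0.05 over all tested genes and the fold change was at least 1.5, which is 0.58 on the log2 scale. Library totals ranged from 15.5 M to 21.0 M counts in genes. All 6 listed AhR target genes were called higher at 10 and at 30 μg/kg, and all 6 listed hepatocyte markers were detected in every group. Mouse 1 at 30 μg/kg stood apart from its group on the first principal component of all tested genes, at 81.7 against 129 to 147 in the other 4 mice and -50.4 to -31.3 in vehicle. A further 7 libraries below 30 μg/kg held over 1 CPM of summed adipocyte markers (vehicle mouse 2, mice 3 and 4 at 0.1, mice 1 and 3 at 1, and mouse 1 at 3 and at 10 μg/kg). Results that rest on these libraries are given with and without them.

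The upstream sequence of 3 members is shown because AhR with its partner binds DNA at a short core, GCGTG, and these windows span the range from 0 to 2 matches found among the members searched. Each line gives the 250 bases before a start site in RefSeq (GRCm38.p6), 5′ to 3′ on the gene's strand, with GCGTG or its reverse complement CACGC in capitals.
Cd36, chr5:17835897-17836146, strand -: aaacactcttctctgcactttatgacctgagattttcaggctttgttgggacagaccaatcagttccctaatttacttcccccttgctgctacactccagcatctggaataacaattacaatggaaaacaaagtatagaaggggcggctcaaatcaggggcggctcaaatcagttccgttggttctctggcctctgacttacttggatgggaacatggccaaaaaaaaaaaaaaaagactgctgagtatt
Plin2, chr4:86670060-86670309, strand -: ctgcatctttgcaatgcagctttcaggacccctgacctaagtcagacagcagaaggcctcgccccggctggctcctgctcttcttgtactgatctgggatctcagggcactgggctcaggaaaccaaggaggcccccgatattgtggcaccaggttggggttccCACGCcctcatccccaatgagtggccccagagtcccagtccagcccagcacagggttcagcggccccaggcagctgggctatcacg
Mogat1, chr1:78510810-78511059, strand +: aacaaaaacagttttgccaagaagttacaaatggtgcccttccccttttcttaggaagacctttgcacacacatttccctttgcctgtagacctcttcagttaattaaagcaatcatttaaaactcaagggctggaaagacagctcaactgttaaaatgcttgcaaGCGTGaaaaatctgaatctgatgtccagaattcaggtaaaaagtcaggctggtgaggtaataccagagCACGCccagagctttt
Cd36, the member with the largest rise, had no match in this window. Plin2 had 1 match, at 86 bases before the start, and Mogat1 had 2, at 16 and 84 bases before it. For 8 of the 10 members 11 windows were searched, and 5 of the 11 held the core, beside 28.2% of 32851 windows of the same length (9250) over all genes. Lpl had no entry. Cidea was left out of the search of member windows, whereas the 32851 windows were not restricted in this way. A match in such a window is a description of the letters and not a bound site.

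The first question was at which dose the set moved. At 0.03 and 0.1 μg/kg 0 of 10 members were called, where 0.0195% and 0.0976% of all tested genes were. At these doses 0 and 2 members had an unadjusted p under 0.05, as had 393 and 665 of all 15373 genes. Cd36 and Lpl were the 2 members called at 0.3, 1, 3 and 10 μg/kg, both higher, and the share of all tested genes called at these doses was 0.468%, 2.78%, 6.75% and 21.8%. At 30 μg/kg 8 of 10 members were called beside 42.1% of all tested genes. Of these 6 were higher (Cd36, Lpl, Vldlr, Plin2, Cidec and Pnpla2) beside 23.2% of all genes, and 2 were lower (Plin4 and Mogat1) beside 18.9%. With libraries scaled by total counts alone, 6 were higher and 1 was lower, with Mogat1 no longer called. Under that scaling 7961 of all 15373 tested genes were called and their median log2 fold change was 0.52. With TMM the median log2 fold change at 30 μg/kg was 1.36 over the 10 members and 0.03 over all tested genes.

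**Figure D1:**
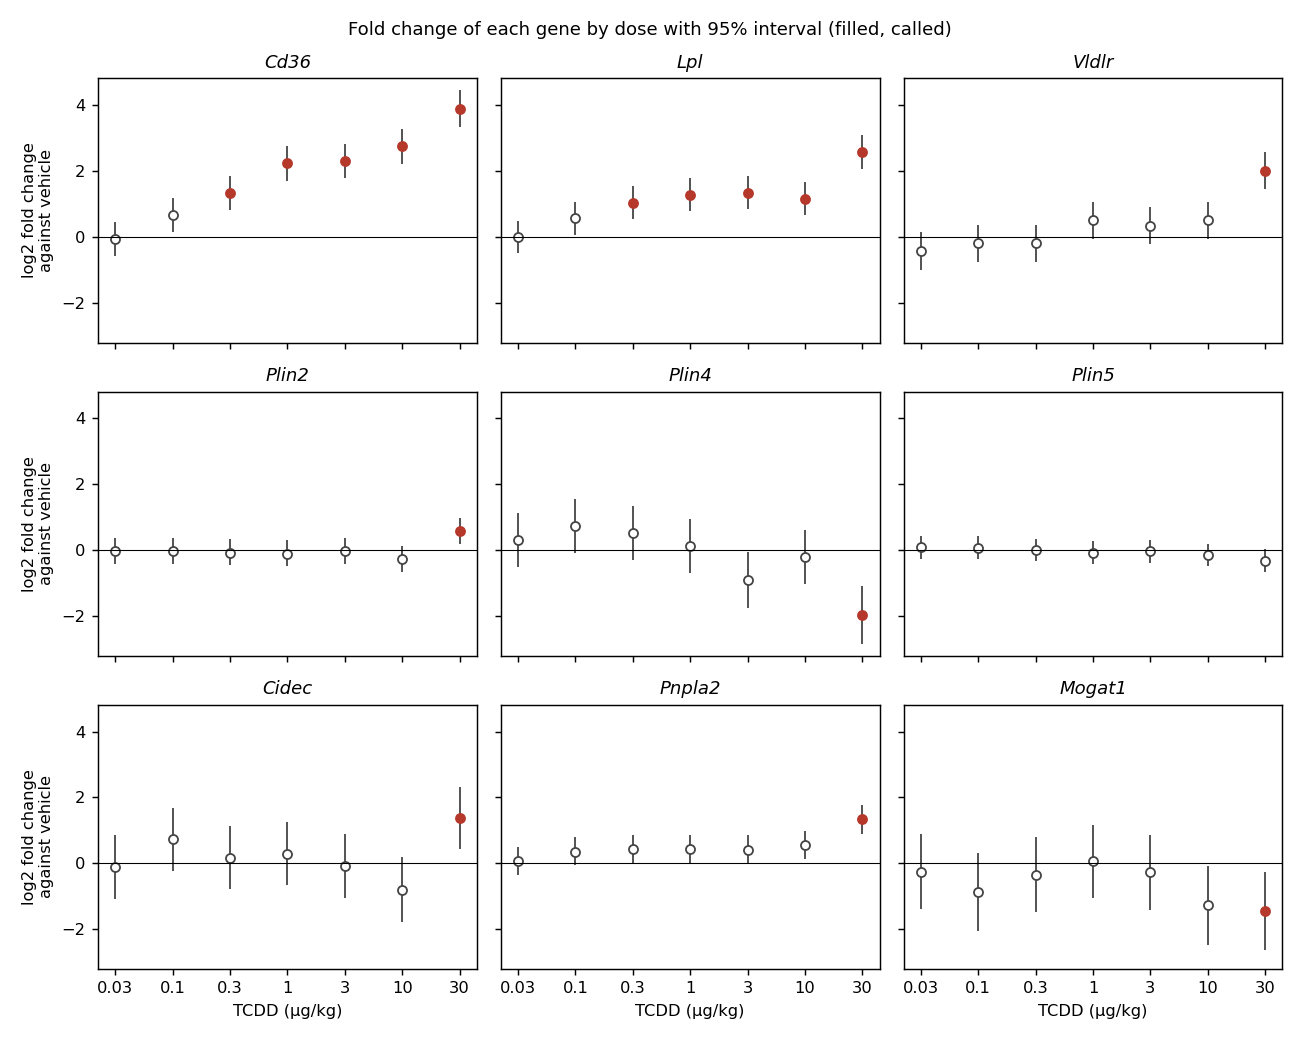
The log2 fold change against vehicle (vertical axis) is plotted at each TCDD dose in μg/kg (horizontal axis) for 9 members, with the 95% interval of the edgeR fit as a bar and called values filled. Cd36 and Lpl were called from 0.3 μg/kg up, while the other called members were called at 30 μg/kg alone. Cidea, at or near 0 reads in most libraries, is left out.

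Between neighbouring doses members were called in the last step alone. None of the 10 was called in the steps from 0.03 to 0.1, 0.1 to 0.3, 0.3 to 1, 1 to 3 and 3 to 10 μg/kg, where 0.0390%, 0.0455%, 0.241%, 0.0585% and 6.77% of all tested genes were, and 3, 2, 3, 2 and 0 members had an unadjusted p under 0.05, as had 592, 481, 1011, 853 and 3404 of all 15373 genes. Cidea was 1 of these members in each of the first 4 steps, where its reads lay in libraries over 1 CPM of adipocyte markers alone. Without those libraries 0 members were called in these 5 steps. Cd36 was another in the first 3 steps, at log2 fold changes of 0.73, 0.66 and 0.90 (unadjusted p = 0.00631, 0.0114 and 8.50e-04 by edgeR). The rest were Lpl from 0.03 to 0.1 (0.57), Vldlr from 0.3 to 1 (0.71) and Plin4 from 1 to 3 μg/kg (-1.02). From 10 to 30 μg/kg 7 members were called beside 21.1% of all genes. Cd36, Lpl, Vldlr, Plin2, Cidec and Pnpla2 rose in this step and Plin4 fell. A slope over the ordered dose steps had an adjusted p under 0.05 in 6 of 10 members and in 57.7% of all genes. It was upward in Cd36, Lpl, Vldlr and Pnpla2 and downward in Plin4 and Plin5.

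Cd36, which encodes the fatty acid translocase, showed the largest change of the set. Its level was 37.3, 61.5, 25.0, 20.7 and 37.6 CPM in the 5 vehicle livers. At 0.3 μg/kg it was 96.8, 91.9, 120, 97.0 and 55.6 CPM, and at 1 μg/kg 202, 148, 170, 196 and 143 CPM. At 0.3 μg/kg 4 of 5 mice lay above every vehicle mouse, and from 1 μg/kg up all 5 did.

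At 10 μg/kg Cd36 stood at 272, 262, 256, 281 and 158 CPM, and at 30 μg/kg at 326, 569, 584, 701 and 523 CPM. The groups at 10 and 30 μg/kg did not overlap. Group means with the SD over 5 mice were 36.4 ± 15.9 CPM in vehicle, 172 ± 27.1 at 1, 180 ± 27.3 at 3, 246 ± 50.0 at 10 and 541 ± 137 at 30 μg/kg.

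Cd36 changed by a log2 fold of 0.68 (SE 0.25, adjusted p = 1.00) at 0.1 μg/kg, 1.34 (SE 0.25, adjusted p = 0.00247) at 0.3, 2.24 (SE 0.26, adjusted p = 1.02e-07) at 1 and 3.89 (SE 0.28, adjusted p = 1.40e-14) at 30 μg/kg. Between 1 and 3 μg/kg it changed by 0.06 with a 95% interval of -0.44 to 0.56. Between 3 and 10 μg/kg it changed by 0.45 (-0.04 to 0.95), and neither step was called. Cd36 ranged from 133 to 202 CPM (median 184) at 3 μg/kg and from 158 to 281 CPM (median 262) at 10 μg/kg. The step from 10 to 30 μg/kg was 1.14 (SE 0.25, adjusted p = 4.67e-04). The calls at 1, 3, 10 and 30 μg/kg held under all 24 alternatives tried for each, which left out single libraries or changed the processing. At 0.3 μg/kg the call was lost in each run of title numbers alone, where the log2 fold change was 1.20 and 1.64.

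Lpl, which encodes lipoprotein lipase, the enzyme that frees fatty acids from circulating triglyceride, was called at the same doses as Cd36, with smaller changes. Its level was 38.7, 35.4, 32.2, 45.6 and 22.4 CPM in vehicle and 67.8, 76.5, 86.9, 50.2 and 79.2 CPM at 0.3 μg/kg, and all 5 mice at 0.3, 1 and 3 μg/kg lay above every vehicle mouse. At 10 μg/kg it was 73.6, 124, 89.6, 68.4 and 35.1 CPM, with mouse 5 within the vehicle range. The mice at 30 μg/kg had 120, 282, 288, 197 and 154 CPM.

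Relative to vehicle, the log2 fold change of Lpl was 1.05 (SE 0.25, adjusted p = 0.0289) at 0.3 μg/kg, 1.28 at 1, 1.35 at 3, 1.16 at 10 and 2.58 (SE 0.26, adjusted p = 6.08e-11) at 30 μg/kg. From 0.3 to 10 μg/kg no step was called, and the step from 10 to 30 μg/kg was 1.41 (SE 0.24, adjusted p = 2.11e-05). The call at 0.3 μg/kg was lost when any 1 of 8 libraries was left out, which were mice 1, 2, 3 and 5 of vehicle and of 0.3 μg/kg, with a log2 fold change of 0.93 to 1.09 and an adjusted p of 0.0521 to 0.121. It was also lost without the 7 libraries over 1 CPM of adipocyte markers (1.06, adjusted p = 0.126), which left Cd36 as the 1 member called there. The call at 30 μg/kg held under all 24 alternatives.

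Vldlr, which encodes the very low density lipoprotein receptor, was low in vehicle liver and rose at the highest dose. It was at 8.91, 7.84, 3.95, 5.25 and 8.60 CPM in vehicle, at 11.9, 11.9, 7.92, 11.7 and 5.89 CPM at 10 μg/kg and at 16.1, 25.3, 27.9, 47.9 and 22.5 CPM at 30 μg/kg. The lowest mouse at 30 μg/kg lay above the highest vehicle mouse, and mouse 4 was above the other 4. Vldlr changed by a log2 fold of 0.51 (95% interval -0.05 to 1.07, adjusted p = 0.163) at 10 and 2.01 (SE 0.28, adjusted p = 1.06e-07) at 30 μg/kg, and the latter call held under all 24 alternatives. With libraries scaled by total counts alone, Vldlr was also called at 10 μg/kg (0.73, adjusted p = 0.0471).

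**Figure D2:**
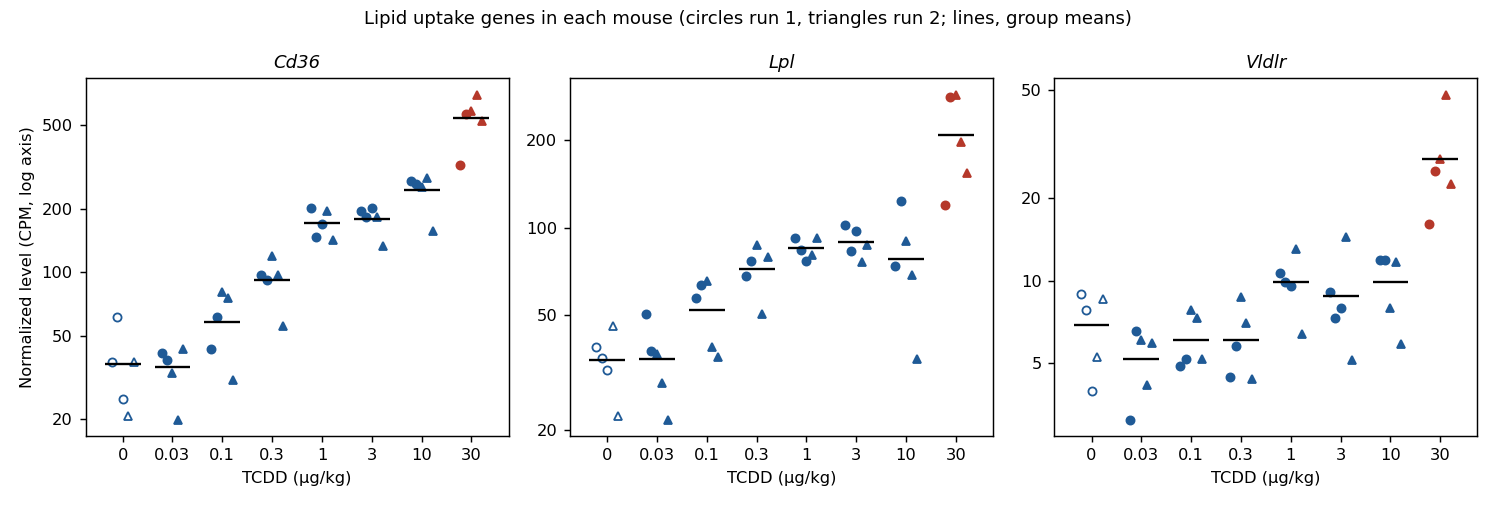
Levels of Cd36, Lpl and Vldlr in CPM (vertical axis, logarithmic) are plotted for each of the 40 mice by TCDD dose in μg/kg (horizontal axis, 0 for vehicle). Lines are group means (n = 5), circles are libraries with title numbers up to 27 and triangles those from 28. Cd36 climbed between vehicle and 1 μg/kg and again at 30 μg/kg, where its lowest mouse, at 326 CPM, lay above the highest mouse at 10 μg/kg, at 281 CPM.

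The 3 perilipins did not move together. Plin2, the main droplet coat protein of hepatocytes, was the most abundant member per length. In reads per kilobase of exon per M counts (RPKM) it stood at 147 ± 14.9 in vehicle, against 27.3 ± 3.86 for Plin5 and 0.764 ± 0.272 for Plin4 (SD, n = 5).

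Plin2 was at 470, 557, 575, 456 and 519 CPM in vehicle and at 379, 414, 433, 428 and 486 CPM at 10 μg/kg, where 4 of 5 mice lay below every vehicle mouse. The mice at 30 μg/kg had 295, 1165, 1051, 518 and 856 CPM. At this dose 3 mice lay above the vehicle range, mouse 4 within it and mouse 1 below it, and the SD was 364 CPM against 52.2 in vehicle.

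Against vehicle, Plin2 had a log2 fold change of -0.27 (95% interval -0.66 to 0.13, adjusted p = 0.318) at 10 μg/kg and 0.59 (SE 0.20, adjusted p = 0.00973) at 30 μg/kg, which is just past the fold threshold. The step from 10 to 30 μg/kg was 0.86 (SE 0.20, adjusted p = 7.44e-04). The call at 30 μg/kg was lost without vehicle mouse 1 or 4 and without mouse 2, 3 or 5 at 30 μg/kg, when the log2 fold change was 0.38 to 0.56. It was also lost in a fit of the 2 groups alone (0.58, adjusted p = 0.124) and by limma on the deposited log2 values (0.44, adjusted p = 0.0807). Without mouse 1 at 30 μg/kg the value was 0.80.

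Plin4, a perilipin best known from adipose tissue and muscle, was the coat gene that fell. It was at 2.74, 6.22, 5.76, 4.34 and 3.01 CPM in vehicle and at 2.04, 1.41, 0.877, 0.873 and 0.506 CPM at 30 μg/kg, where every mouse lay below every vehicle mouse. These are 12 to 44 reads a library at 30 μg/kg and 42 to 100 in vehicle. This was a log2 fold change of -1.95 (SE 0.44, adjusted p = 2.22e-04), a call that held under all 24 alternatives.

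At intermediate doses Plin4 was uneven. At 3 μg/kg 4 of 5 mice lay below every vehicle mouse, with a log2 fold change of -0.90 (95% interval -1.75 to -0.05, adjusted p = 0.189). At 10 μg/kg mouse 3 was at 8.91 CPM and the other 4 were between 1.25 and 3.78 CPM. Without mouse 3 at 10 μg/kg the step from 10 to 30 μg/kg was -1.18 in place of -1.76. Of the bases in Plin4 exons, 0.294% overlap Hdgfl2 on the other strand, and the counts were unstranded.

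Plin5, a perilipin of tissues that oxidize fat, was not called at any dose. It was at 44.6, 66.0, 61.6, 57.6 and 55.2 CPM in vehicle and at 38.7, 63.3, 49.0, 49.4 and 29.9 CPM at 30 μg/kg, and the groups overlapped. Its log2 fold change at 30 μg/kg was -0.31 (95% interval -0.65 to 0.03, adjusted p = 0.117) and turned to 0.20 with total counts as the scaling. Its slope over the dose steps, -0.04 a step on the log2 scale (adjusted p = 0.0310), was downward. Per length, Plin2 made up 84.0% ± 1.52 of the summed level of the 3 perilipins in vehicle livers and 89.3% ± 5.28 in those given 30 μg/kg (SD, n = 5), with overlapping ranges of 82.1% to 86.0% and 81.7% to 94.4%.

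Cidec, whose product enlarges droplets by fusion, rose at 30 μg/kg mainly in 1 mouse. It was at 3.23, 3.30, 3.37, 2.59 and 1.93 CPM in vehicle and at 1.39, 2.54, 2.24, 1.24 and 0.889 CPM at 10 μg/kg. In the 30 μg/kg group it was 1.43, 24.1, 6.71, 2.86 and 2.7 CPM, so that mice 2 and 3 lay above the vehicle range, mice 4 and 5 within it and mouse 1 below it. The log2 fold change was 1.39 (SE 0.46, adjusted p = 0.0110), and without mouse 2 it was 0.23 (adjusted p = 0.638). It was also not called in a fit of the 2 groups alone (1.38, adjusted p = 0.0897) or by limma on the deposited log2 values (0.57, adjusted p = 0.166). The step from 10 to 30 μg/kg was 2.18 (SE 0.48, adjusted p = 5.19e-04) and 1.02 without mouse 2, still called.

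Cidea, a second fusion gene that is abundant in brown fat, had no read in most libraries. In vehicle mouse 2 alone carried reads, 7 of them, and all 5 libraries at 0.03, 0.3 and 3 μg/kg had 0. The limit that a count of 0 allows, 3 counts, is 0.188 CPM in vehicle and 0.124 CPM at 30 μg/kg, for counting error alone. The counts in the 30 μg/kg group were 0, 36, 6, 8 and 12, or 0, 1.5, 0.229, 0.318 and 0.506 CPM.

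Below 30 μg/kg the Cidea reads lay in libraries that held adipocyte markers. Of the 7 libraries with over 1 CPM of the summed markers Adipoq, Lep, Retn, Cfd, Plin1 and Ucp1, 6 held Cidea reads (1 to 22), and of the other 28 libraries below 30 μg/kg 1 did (3 reads, mouse 5 at 10 μg/kg). At 30 μg/kg the marker sum was at most 0.337 CPM, with Adipoq, Lep and Ucp1 at 0 reads in all 5 libraries, and Cidea reads were present in 4 of 5. The test of 30 μg/kg against vehicle gave an adjusted p of 0.139, and 0.0316 without vehicle mouse 2, whose removal left vehicle at 0 reads. No fold change is given because both groups lie near the limit of detection.

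**Figure D3:**
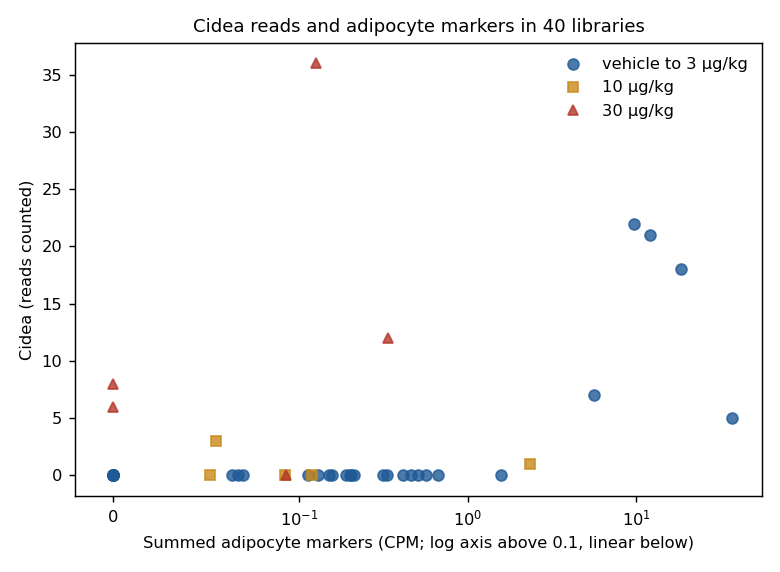
Reads counted for Cidea (vertical axis) are plotted against the summed CPM of 6 adipocyte markers (horizontal axis, logarithmic above 0.1 and linear below) in each of the 40 libraries. Libraries below 10 μg/kg with Cidea reads lie at 5.66 CPM of markers or more, whereas 4 of the 5 libraries at 30 μg/kg hold 6 to 36 Cidea reads at 0.337 CPM or less.

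Pnpla2, which encodes adipose triglyceride lipase, was called higher at the highest dose alone. It was at 53.6, 58.2, 56.8, 74.0 and 77.5 CPM in vehicle and at 69.6, 92.2, 81.0, 102 and 129 CPM at 10 μg/kg. In the 30 μg/kg group it was 59.8, 222, 229, 157 and 141 CPM, with 4 mice above every vehicle mouse and mouse 1 within the vehicle range.

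Pnpla2 had log2 fold changes between 0.36 and 0.44 at 0.1, 0.3, 1 and 3 μg/kg with none called. At these doses 3, 4, 4 and 5 of 5 mice lay above every vehicle mouse. The log2 fold change was 0.57 (SE 0.21, adjusted p = 0.0376) at 10 μg/kg, short of the fold threshold, and 1.34 (SE 0.21, adjusted p = 1.52e-06) at 30 μg/kg. The call at 30 μg/kg held under all 24 alternatives. At 10 μg/kg Pnpla2 was called when vehicle mouse 4 or 5, or mouse 1 or 3 at 10 μg/kg, was left out (0.62 to 0.66).

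Mogat1, whose enzyme adds an acyl chain to monoacylglycerol, was near the lower end of detection. It was at 0.0995, 0.746, 1.55, 0.280 and 1.29 CPM in vehicle (2 to 24 reads) and at 0.324, 0.541, 0.153, 0.159 and 0.253 CPM at 30 μg/kg (4 to 13 reads). All mice at 30 μg/kg lay within the vehicle range. The log2 fold change was -1.44 (SE 0.58, adjusted p = 0.0345). The call was lost without vehicle mouse 3 or 5 and without mouse 3, 4 or 5 at 30 μg/kg, when the log2 fold change was -1.43 to -1.04, and likewise under total counts (-0.94), with no filter on low counts (-1.42, adjusted p = 0.0747) and by limma (-0.41). In addition, 12.8% of the exon bases of Mogat1 overlap BC035947 on the other strand, whose reads the unstranded counts do not separate.

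**Figure D4:**
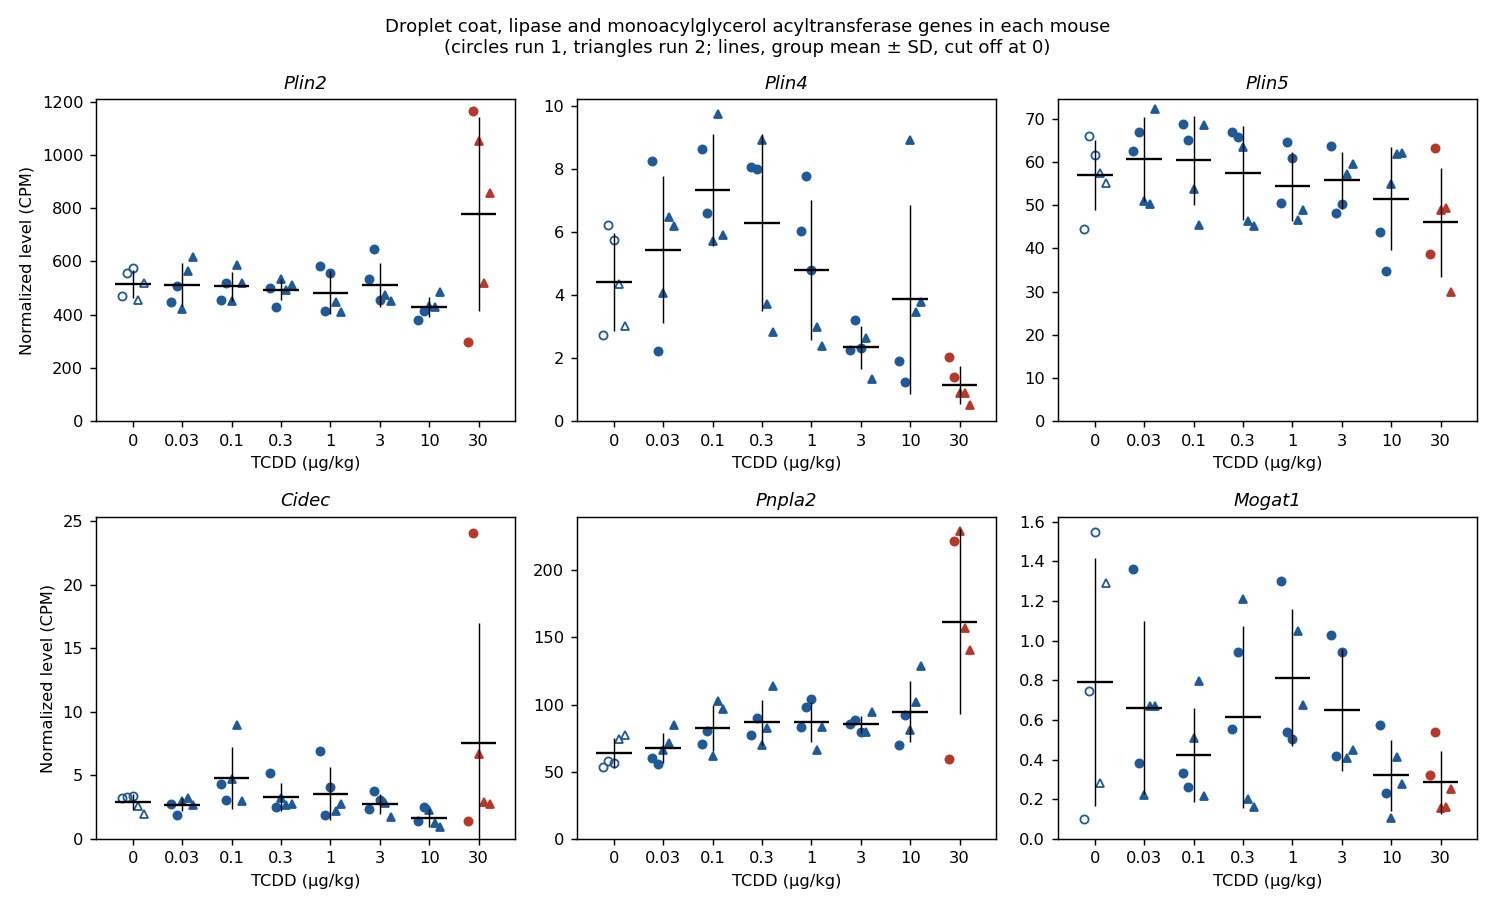
Levels of Plin2, Plin4, Plin5, Cidec, Pnpla2 and Mogat1 in CPM (vertical axes) are plotted for each of the 40 mice by TCDD dose in μg/kg (horizontal axes, 0 for vehicle), with lines for the group mean ± SD (n = 5). Circles are libraries with title numbers up to 27 and triangles those from 28. The 5 mice at 30 μg/kg spread from 295 to 1165 CPM for Plin2 and from 1.43 to 24.1 CPM for Cidec, and those for Plin4 lie at 2.04 CPM or less.

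The mice at 30 μg/kg differed among themselves in most members. Mouse 1 had the lowest level of the 5 for Cd36, Lpl, Vldlr, Plin2, Cidec and Pnpla2 and the highest for Plin4. Mouse 2 had the highest level for Plin2, Plin5, Cidea, Cidec and Mogat1. The same mouse 1 had the highest hepatocyte marker sum of its group, 62061 CPM against 29129 to 48056 in the other 4, and the lowest macrophage marker sum, 422 CPM against 862 to 1079. With both mouse 1 at 30 μg/kg and the 7 libraries with adipocyte markers left out, 7 members were called at 30 μg/kg, with Mogat1 lost (-1.54, adjusted p = 0.0585).

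**Figure D5:**
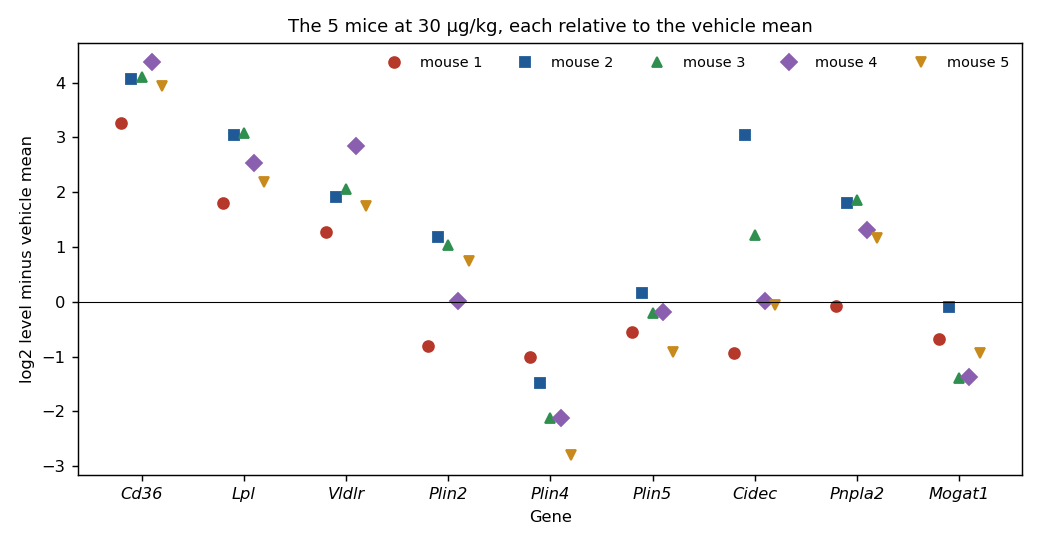
The log2 level of 9 members minus the vehicle mean (vertical axis) is plotted for each of the 5 mice at 30 μg/kg by gene (horizontal axis). Mouse 1 lies lowest for 6 of the 9 genes, among them Cd36 at 3.26 against 3.94 to 4.37 in the other mice.

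Compared per length, the order of the members changed with dose. In vehicle Plin2 (147 RPKM) was followed by Plin5 (27.3), Pnpla2 (21.2 ± 3.61), Cd36 (10.1 ± 4.43) and Lpl (3.33 ± 0.815), and each of the other 5 was under 2 RPKM. At 30 μg/kg Plin2 (221 ± 104) and Cd36 (151 ± 38.1) led and lay within their spread of each other, followed by Pnpla2 (53.6 ± 22.8), Plin5 (22.1 ± 6.03) and Lpl (19.9 ± 7.20), of which the last 2 also lay within their spread. Exon lengths came from GENCODE M21 and ignore which isoforms were made.

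The surrounding pathway was read from a list of 56 genes of uptake, droplet formation, lipolysis and triglyceride synthesis, of which 55 were tested. At 10 μg/kg 6 were called higher and 9 lower, beside 13.6% and 8.13% of all tested genes. The split at 30 μg/kg was 9 against 26, beside 23.2% and 18.9% of all genes, with a median log2 fold change of -0.62 over the list. With total counts as the scaling, which moved the median of all tested genes at 30 μg/kg from 0.03 to 0.52, the split at 30 μg/kg was 15 higher and 14 lower with a median of -0.13, and that at 10 μg/kg was 11 higher and 6 lower with a median of 0.01. Under total counts 7961 of all 15373 tested genes were called at 30 μg/kg and 3736 at 10 μg/kg, not split into higher and lower. The split of the list into higher and lower genes therefore depended on the scaling. Its median at 30 μg/kg lay below that of all tested genes under both scalings, and the values below for single genes kept their sign under both.

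Among 20 uptake genes, 3 were called higher and 10 lower at 30 μg/kg, and under total counts 6 higher and 4 lower. Gpihbp1, which anchors lipoprotein lipase on capillary endothelium, rose from 14.3 ± 3.19 to 25.8 ± 4.00 CPM (log2 fold change 0.86, adjusted p = 8.47e-05). Slc27a2, a fatty acid transport protein with acyl-CoA synthetase activity, fell from 1196 ± 169 to 488 ± 51.4 CPM (-1.29, adjusted p = 2.97e-13). Fabp1, the liver fatty acid binding protein, fell from 2654 ± 526 to 1522 ± 630 CPM (-0.80, adjusted p = 0.00209) and was not called under total counts (-0.33, adjusted p = 0.181).

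Of 12 genes of droplet coat and formation, 2 were called higher and 4 lower with a median of -0.33, and under total counts 3 higher and 2 lower with a median of 0.17. Hilpda, whose product inhibits adipose triglyceride lipase, rose from 2.13 ± 0.683 CPM in vehicle to 12.4 ± 4.25 at 10 and 34.7 ± 25.1 at 30 μg/kg (log2 fold change 4.01, adjusted p = 7.87e-12). Plin1, the coat protein of adipocytes, was at 0.236 ± 0.529 CPM in vehicle and 0.0337 ± 0.0754 CPM at 30 μg/kg and was not called (adjusted p = 0.239).

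Of 7 lipolysis genes tested, 1 was called higher and 5 lower, and under total counts 2 higher and 2 lower. Mgll, the monoacylglycerol lipase, rose from 155 ± 37.4 to 431 ± 61.7 CPM (1.47, adjusted p = 8.66e-12). Aadac, an esterase of the endoplasmic reticulum, fell from 613 ± 69.2 to 67.7 ± 38.9 CPM (-3.18, adjusted p = 5.41e-17).

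Among 16 genes of acyl-CoA and triglyceride synthesis, 3 were called higher and 7 lower, and under total counts 4 higher and 6 lower. Gpat3, a glycerol-3-phosphate acyltransferase, rose from 2.64 ± 1.02 to 33.2 ± 17.6 CPM (3.65, adjusted p = 8.70e-11). Agpat2 and Dgat2, acyltransferases of later steps, fell from 283 ± 26.8 to 48.2 ± 17.9 CPM (-2.56) and from 518 ± 59.6 to 129 ± 56.8 CPM (-2.01). All means here are over 5 mice with the SD.

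Among 8 regulators, 1 was called higher and 4 lower at 30 μg/kg, and under total counts 2 higher and 3 lower. Pparg, a nuclear receptor of fat storage, rose from 7.96 ± 0.986 to 19.2 ± 3.83 CPM (1.27, adjusted p = 4.30e-07) and was called at each dose from 0.3 μg/kg up (1.05, adjusted p = 0.00153 at 0.3). Ppara, the nuclear receptor of hepatic fat oxidation, fell from 67.8 ± 9.86 to 18.6 ± 9.15 CPM (-1.87, adjusted p = 1.12e-09). Srebf1, which encodes the sterol regulatory element binding protein of lipid synthesis, fell from 387 ± 70.2 to 93.7 ± 56.6 CPM (-2.05, adjusted p = 6.17e-08).

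Macrophage, endothelial, stellate and hepatocyte markers were not called at 0.3 μg/kg, the lowest dose at which Cd36 and Lpl were, but moved at higher doses. At 0.3 μg/kg 0 of 10 macrophage, 0 of 6 endothelial, 0 of 6 stellate and 0 of 6 hepatocyte markers were called by edgeR. The share of all tested genes called at this dose was 0.468%, at which lists this short would seldom hold a call. Of these markers 2, 0, 1 and 1 had an unadjusted p under 0.05, as had 1127 of all 15373 genes. Cd36 and Lpl are also expressed by macrophages, and Cd36 by endothelial cells. The summed level of 10 macrophage markers ranged from 126 to 176 CPM in vehicle, from 128 to 198 at 0.3, from 209 to 243 at 1, from 291 to 464 at 10 and from 422 to 1079 at 30 μg/kg, and 10 of 10 were called higher at 30 μg/kg. Of 6 endothelial markers 4 were called higher (sums of 115 to 151 CPM in vehicle and 221 to 302 at 30 μg/kg), and of 6 stellate markers 3 were (186 to 259 and 396 to 773 CPM). Of 6 hepatocyte markers 5 were called lower, with sums of 101435 to 124220 CPM in vehicle and 29129 to 62061 at 30 μg/kg. Of all tested genes 23.2% were called higher and 18.9% lower at 30 μg/kg. The part of these cell types in the changes of the members was not tested. Skeletal muscle markers summed to 278 CPM in vehicle mouse 2 and to 0.0647 CPM or less in the other 4 vehicle mice. They were at most 0.640 CPM from 0.03 to 3 μg/kg, 0.738 to 6.88 at 10 and 20.1 to 75.0 at 30 μg/kg. In all 5 mice of the highest dose Ckm and Myh4 were at 0 and Tnnt3 at 3 reads or fewer, so that the sum there was almost all Acta1. Acta1, the 1 of 4 muscle markers that was tested, was called higher from 10 to 30 μg/kg (3.15, adjusted p = 0.0286). It was not called at 30 μg/kg against vehicle (0.36), where vehicle mouse 2 held 278 CPM of these markers. The part of muscle RNA in the changes of the members was not tested. Without vehicle mouse 2 the log2 fold change of Cd36 at 30 μg/kg was 4.16.

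Some genes followed single members closely over the 40 libraries, which share the dose series, so that r is a description. The log2 levels most like those of Cd36 were Ucp2, Ugdh and Pkm, with a Pearson r of 0.94 for each, and 0.91 to 0.92 over the 35 libraries below 30 μg/kg. For Vldlr it was Hpgd, with an r of 0.90, and 0.80 without the highest dose. Lpl came next, with an r to Ugdh that rounds to 0.90 but lay under the limit of 0.9 set for naming a gene.

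The titles number the libraries in 2 runs, 19 up to number 27 and 21 from number 28, which are treated as a possible batch. With dose in the model 0 of 10 members differed between the runs by edgeR's test, with adjusted p from 0.324 to 0.970, and 0 did by DESeq2. At 30 μg/kg, run 1 alone and run 2 alone gave log2 fold changes of 3.43 and 4.34 for Cd36, 2.49 and 2.62 for Lpl, 1.56 and 2.21 for Vldlr, -1.51 and -2.30 for Plin4 and 1.32 and 1.18 for Pnpla2, all called. For Plin2 they were 0.44 (adjusted p = 0.357) and 0.70 (adjusted p = 0.0179), and for Cidec 1.95 (adjusted p = 0.0415) and 0.83 (adjusted p = 0.178). The call of Mogat1 was lost in both runs, at -0.86 (adjusted p = 0.468) and -2.06 (adjusted p = 0.0690). Lpl was not called in run 2 alone at 1, 3 and 10 μg/kg, with log2 fold changes of 1.35, 1.27 and 0.92.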

How the data were processed

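Liver RNA of 40 mice, with RNA integrity numbers of at least 7, was sequenced from libraries made with an NEB Ultra kit, and the read length is not given in the sources used here. Tools named in the submitters' processing notes are FastQC 0.11.7, Trimmomatic 0.39 and STAR 2.7.3a. The notes name GRCm39 and mm10 without a role, so no coordinates of the counted genes are given. The authors deposited raw counts per gene and library, of which the unstranded column was used (50.0% to 50.3% of stranded reads fell on the first strand). Rows that name no gene held 19.2% to 28.7% of reads and were left out. A table of log2 values that the authors normalized across libraries was deposited too and entered 1 alternative test.

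Symbols were matched for 52083 of 55359 identifiers through a GENCODE M21 gene table. The counts were filtered with filterByExpr (minimum count 10, minimum total 15), scaled with TMM and fitted with a quasi-likelihood model of 1 mean per dose over all 40 libraries (edgeR 4.0.16, R 4.3.3). Benjamini-Hochberg adjustment was made over all tested genes of a comparison. The study's methods use an empirical Bayes posterior probability in place of edgeR. The fit was tested on simulated data. SE comes from the fit and SD from the mice. Log2 CPM had a prior count of 2. Replicate numbers follow the order of deposit and pair no mice. All doses share the same 5 vehicle mice. No library was a copy of another in its dose group, with a lowest chi-square per degree of freedom of 10.2 over 80 replicate pairs. Libraries of different groups were not compared in this way. No molecular identifiers are named in the sources used here, and detection limits cover counting error alone.

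The members and gene lists were chosen with earlier results of these data known. All 10 members are described. Genes of the pathway and regulator lists are named where called at 10 and 30 μg/kg in the same direction, at most 3 a role by size at 30 μg/kg, with Pparg, Ppara and Plin1 always, and the 3 genes most like each member where r was at least 0.9. Alternatives were DESeq2 1.42.0, limma 3.58.1 on the deposited log2 values, other scalings, filters and fold thresholds, a fit of the groups compared alone, the run of title numbers as a covariate or each run alone, a slope on log10 dose and leaving out each library. Leaving out the libraries with adipocyte markers, alone or with mouse 1 at 30 μg/kg, was added after seeing the data.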

Additional observations from a re-analysis of the deposited data

Results flagged for a closer look

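In 76 combinations of member and group, 6 had 1 mouse whose distance to the nearest of the other 4 exceeded the critical share of the group's range, 0.71. Chance gives this in about 1 of 20 groups if values are normally distributed, which was not checked. The rate does not hold for Cidea in vehicle, where 1 mouse with reads beside mice at 0 always exceeds the limit. Cd36 was low in mouse 5 at 3 μg/kg, 133 CPM against 184 or more in the others, and in mouse 5 at 10 μg/kg, 158 CPM against 256 or more. Cidea was high in vehicle mouse 2, 0.435 CPM against 0, and in mouse 3 at 0.1 μg/kg, 1.34 CPM against 0.332 or less. Cidec was high in mouse 1 at 0.3 μg/kg, 5.17 CPM against 3.20 or less, and in mouse 2 at 30 μg/kg, 24.1 CPM against 6.71 or less. That library also held the most Cidea reads of all 40, 36, with adipocyte markers at 0.125 CPM. The cause was not tested.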

How the results depend on the processing

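No paired analysis was possible because replicate numbers were given in order of deposit. Of 414 alternative counts of called members, 393 stayed within 1.5 times the reported count, which includes reported counts of 0 that stayed 0. Of the 24 alternatives for the count at 0.3 μg/kg, 11 did. At 0.3 μg/kg the count of 2 became 1 under total counts or without the libraries with adipocyte markers (also without mouse 1 at 30 μg/kg), and 0 in run 1 or run 2 alone. At 1, 3 and 10 μg/kg the 2 called members became 1 in run 2 alone. At 10 μg/kg they became 4 under total counts, where 3736 of all 15373 tested genes were called. At 30 μg/kg the 8 became 5 in a fit of the 2 groups and by limma. In the step from 0.3 to 1 μg/kg a fit of the 2 groups called 1, and in the step from 10 to 30 μg/kg run 1 alone, with 2 libraries a dose, called 0 of the 7. Leaving out 1 library gave 1 to 2 members at 0.3, 2 at 1 and 3, 2 to 3 at 10 and 6 to 9 at 30 μg/kg, 7 to 8 in the last step, 5 to 7 slopes, and 0 elsewhere.

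Of 784 alternative values of single members, 52 lost a call, 12 gained 1 and 11 reversed. Reversals touched no call but 1: the fall of Plin4 from 10 to 30 μg/kg was 0.12 in run 1 alone. The others were Plin4 at 10 μg/kg (0.06 under total counts, 0.55 in run 2 alone against a called -1.64 in run 1 alone, 0.13 without the libraries with adipocyte markers, also without mouse 1 at 30 μg/kg, and 0.04 without mouse 2 at 10 μg/kg, with a range of -0.77 to 0.04 when 1 library was left out) and Plin5 (0.06 under total counts and 0.08 in run 2 alone at 10 μg/kg, 0.20 under total counts at 30 μg/kg, 0.14 under total counts and 0.38 in run 1 alone for the last step). The scaling by total counts moved the median change over tested genes (log2) from 0.01 to 0.22 at 10 and from 0.03 to 0.52 at 30 μg/kg, and the causes of the other changes were not tested. Depth limits Mogat1 and Cidea, with at most 24 and 36 reads a library. Mogat1 and Cidea had no value under filters or subsets that removed them.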

Other observations

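Some partners of the members were called at 30 but not at 10 μg/kg and are named here after their values were seen. Cideb, the CIDE gene of hepatocytes, fell from 19.5 ± 2.97 CPM in vehicle to 5.60 ± 3.23 at 30 μg/kg (log2 fold change -1.81, adjusted p = 1.69e-08), with ranges of 14.5 to 21.8 and 2.52 to 10.7 CPM that did not overlap. Fitm1, which helps droplets form, fell from 17.6 ± 7.75 to 0.942 ± 1.13 CPM (-4.27, adjusted p = 3.32e-10). Plin3, a further perilipin, fell from 52.1 ± 6.12 to 32.2 ± 1.86 CPM (-0.69, adjusted p = 4.54e-05). Fabp4, a fatty acid binding protein of adipocytes and macrophages, rose from 7.91 ± 2.27 to 19.6 ± 7.45 CPM (1.31, adjusted p = 4.45e-05), and its highest level, 32.7 CPM, was in mouse 2, the mouse with the most Cidec.

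Around adipose triglyceride lipase, Abhd5, its activator, was at 23.5 ± 1.70 CPM in vehicle and was called at 3 μg/kg (0.62, adjusted p = 0.00156) but not at 30 μg/kg (0.28, adjusted p = 0.0741). G0s2, its inhibitor, was at 103 ± 63.6 CPM in vehicle and fell to 45.8 ± 20.5 at 30 μg/kg (-1.17, adjusted p = 0.0208). Lipe, the hormone-sensitive lipase, fell from 10.8 ± 1.39 to 5.66 ± 1.03 CPM (-0.93, adjusted p = 1.45e-06). With total counts as the scaling, Plin3 (-0.20), G0s2 (-0.72, adjusted p = 0.144) and Lipe (-0.43) were not called at 30 μg/kg, and Abhd5 was (0.75, adjusted p = 1.78e-06). All are means over 5 mice with the SD, tested by edgeR.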
